A study of Homo sapiens with 9 samples.

Results

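SPOCK1, HMCN1 and SIPA1L2 are 3 of the 57733 genes listed for each library, and 3 of the 20819 with enough reads to be tested. They were selected on measured values: all 3 were higher than in WT in both KDM6A knockout clones of PANC-1, a human pancreatic cancer cell line. The values of the clones over WT are therefore a description of how the genes were chosen, and no p is given for them. The groups are KO C22 and KO C28, each 1 clone obtained after CRISPR/Cas9 was aimed at KDM6A, and WT, PANC-1 cells that received no guide RNA. Each line gave 2 Bru-seq libraries and 1 BruUV-seq library, 9 in all. Cells of every group were labelled with 2 mM bromouridine for 30 min and collected without a chase, and the BruUV-seq cells received 100 J/m2 of ultraviolet light first. Because each knockout is 1 clone, the effect of losing KDM6A cannot be told apart from other differences between the clones and WT.

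SPOCK1 encodes testican-1, a secreted proteoglycan that carries heparan sulfate and chondroitin sulfate chains and shares a calcium-binding domain with SPARC. HMCN1 encodes hemicentin-1, also called fibulin-6, a very large secreted protein built mainly of immunoglobulin repeats that takes part in cell attachment to basement membranes, as worked out largely in the worm Caenorhabditis elegans. SIPA1L2 encodes an intracellular protein with a domain that inactivates RAP GTPases, the switches through which cells regulate adhesion. KDM6A, also named UTX, removes methyl groups from lysine 27 of histone H3, a mark laid down by Polycomb complexes and tied to silent genes. Bru-seq captures RNA made during the labelling and so reads transcription over the whole gene body, introns included. In BruUV-seq, lesions in the DNA stop polymerases, so that signal is kept near the starts of genes and lost further along, above all in long genes.

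All 3 genes are long. In the coordinates of the tables, for which the submitters' notes name hg38 and GRCh38, SPOCK1 (ENSG00000152377.13) runs from 136975298 to 137499348 on the minus strand of chromosome 5, over 524 kb. HMCN1 (ENSG00000143341.11) runs from 185734551 to 186190949 on the plus strand of chromosome 1, over 456 kb. SIPA1L2 (ENSG00000116991.10) runs from 232397965 to 232561558 on the minus strand of chromosome 1, over 164 kb. RefSeq (GRCh38.p14) extends SIPA1L2 68.9 kb further upstream, so transcription over that stretch is not in the counts of this gene, and 0 genes of the tables start there.

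The libraries held 5.64 to 31.1 M estimated reads in genes. Bru-seq KO C28 replicate 2 stood apart. It had the lowest depth, and 46.5% of its reads lay outside genes, against 9.93% to 20.0% in the other 8 libraries. The background of each library was taken as the 10th percentile of read density over 3848 genes of at least 100 kb. It was 409 reads per Mb in Bru-seq KO C28 replicate 2 and 339 in Bru-seq KO C22 replicate 1, and 12.5 to 97.4 in the other libraries. All 6 epithelial markers had at least 10 reads in every library, with a summed level of 117 to 427 CPM (reads scaled to a common library size, with TMM factors) in KO C22, 320 to 2065 in KO C28 and 244 to 582 in WT. Most of that sum came from the keratins KRT8, KRT18 and KRT19. In KO C22 over WT these 3 keratins stood at log2 fold changes of -1.01, -0.53 and -0.30 in that order. In KO C28 over WT they stood at 1.69, 2.25 and 2.31, and none passed in edgeR in either clone. The 2065 CPM came from Bru-seq KO C28 replicate 2. The adhesion genes EPCAM and CDH1, named here after their values were seen, differed from these keratins in sign in KO C28 only. EPCAM stood at 2.05 to 4.16 CPM in KO C22 and 4.27 to 7.19 in KO C28, all below the 8.74 to 16.5 CPM of WT, and CDH1 at 0.848 to 1.35 CPM in KO C22 and 1.08 to 8.55 in KO C28, against 5.40 to 24.8 in WT. Neither passed in edgeR (adjusted p of 0.224 or more). The targeted gene, KDM6A, was transcribed in every line, at 287 and 427 CPM in Bru-seq of KO C22, 337 and 65.9 in KO C28, and 322 and 276 in WT. Its BruUV-seq levels were 125 CPM in KO C22, 201 in KO C28 and 203 in WT. Counts over the whole gene cannot show a short deletion or insertion, so the knockouts are taken from the labels. Nothing in the labels says that replicates came from separate cultures, so the p-values rest on a spread between libraries that may be technical.

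SPOCK1 stood at 501 and 527 CPM in Bru-seq of KO C22 and at 474 and 160 CPM in KO C28, against 22.4 and 17.6 CPM in WT. In BruUV-seq it stood at 264 CPM in KO C22 and 224 CPM in KO C28, against 21.6 CPM in WT. In such bulk samples fewer cells that transcribe a gene and less RNA per cell cannot be told apart. Every clone library was above every WT library, the lowest of them being Bru-seq KO C28 replicate 2. These levels rest on 9265 and 11889 reads in Bru-seq of KO C22, on 7429 and 1290 in KO C28 and on 490 and 430 in WT, with 3424, 3991 and 512 reads in BruUV-seq of KO C22, KO C28 and WT. The Bru-seq means were 514 ± 18.8 CPM in KO C22, 317 ± 222 CPM in KO C28 and 20.0 ± 3.40 CPM in WT (SD, n = 2 each). Over all 9 libraries, with line and assay as terms in edgeR, KO C22 over WT had a log2 fold change of 4.32 (SE 0.54) and KO C28 over WT one of 3.76 (SE 0.52), or 20.0-fold and 13.5-fold. Without Bru-seq KO C28 replicate 2 the values were 4.30 and 4.07.

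HMCN1 had the lowest level of the 3 in WT. It stood at 25.0 and 94.2 CPM in Bru-seq of KO C22 and at 71.4 and 94.2 CPM in KO C28, against 3.39 and 2.29 CPM in WT. In BruUV-seq it stood at 19.9 CPM in KO C22 and 58.8 CPM in KO C28, against 0.253 CPM in WT. Over the whole gene the reads numbered 462 and 2124 in Bru-seq of KO C22, 1120 and 760 in KO C28, and 74 and 56 in WT. The BruUV-seq libraries held 258 reads in KO C22, 1046 in KO C28 and 6 in WT. The Bru-seq means were 59.6 ± 49.0 CPM in KO C22, 82.8 ± 16.1 CPM in KO C28 and 2.84 ± 0.772 CPM in WT (SD, n = 2 each), so the replicates of KO C22 lay furthest apart. Over WT, KO C22 stood at a log2 fold change of 4.73 (SE 0.69) and KO C28 at 5.65 (SE 0.73), or 26.5-fold and 50.4-fold, and 4.73 and 5.79 without Bru-seq KO C28 replicate 2.

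The WT level of HMCN1 lay close to the background of its libraries. Its read density was 1.66 and 2.62 times the background in Bru-seq of WT and 0.846 times the background in BruUV-seq of WT. In the clones it was 2.99 and 345 times in Bru-seq of KO C22, 33.1 and 4.07 times in KO C28, and 45.2 and 115 times in BruUV-seq of KO C22 and KO C28. Background at that density would make up 60.1% and 38.2% of the HMCN1 reads in Bru-seq of WT, and 33.5% in Bru-seq KO C22 replicate 1. With the background taken off every count, KO C22 stood at 5.75 (SE 0.95) and KO C28 at 6.77 (SE 1.00), both larger than without the subtraction. Counts below the background were set to 0, which was so for HMCN1 in BruUV-seq of WT (background 118% of its reads). Since background was a larger share of the HMCN1 reads in WT than in the clones, the larger values follow from the subtraction itself. For SPOCK1 and SIPA1L2 the background share was 10.4% or less in the WT libraries, and reached 16.6% and 15.1% in Bru-seq KO C28 replicate 2.

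**Figure D1:**
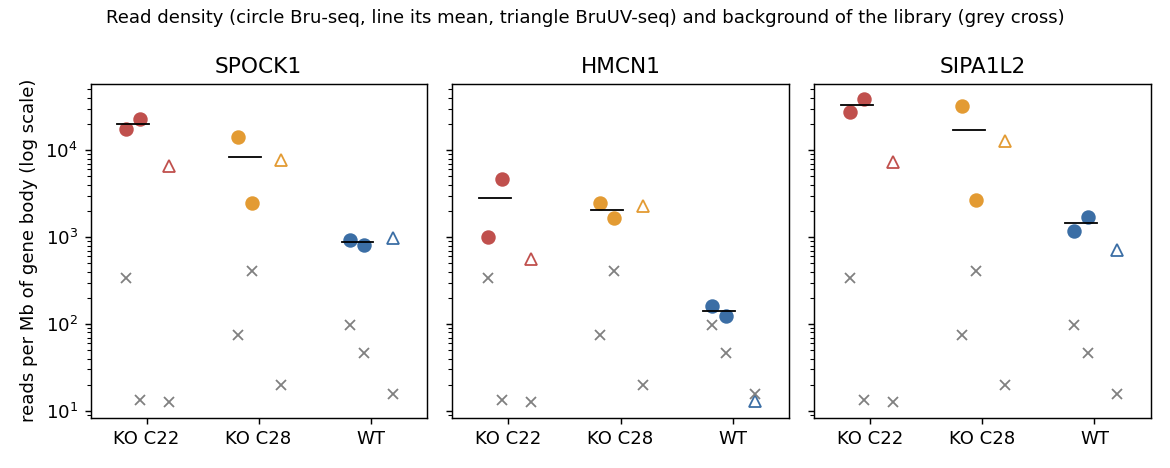
Reads per Mb of gene body (log scale) of SPOCK1, HMCN1 and SIPA1L2 in KO C22, KO C28 and WT, with the background of each library as a grey cross. Circles are Bru-seq libraries (the line is their mean) and triangles BruUV-seq libraries. HMCN1 in WT sits at 0.846 to 2.62 times the background, and the other genes lie well above it in WT.

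SIPA1L2 stood at 245 and 283 CPM in Bru-seq of KO C22 and at 332 and 54.9 CPM in KO C28, against 8.70 and 11.6 CPM in WT. In BruUV-seq it stood at 92.7 CPM in KO C22 and 119 CPM in KO C28, against 4.85 CPM in WT. The clones and WT did not overlap, although the KO C28 replicates lay far from each other, with replicate 2 the lowest clone library. The reads numbered 4532 and 6384 in Bru-seq of KO C22, 5209 and 443 in KO C28, and 190 and 282 in WT, and 1202, 2114 and 115 in BruUV-seq of KO C22, KO C28 and WT. The Bru-seq means were 264 ± 27.0 CPM in KO C22, 193 ± 196 CPM in KO C28 and 10.1 ± 2.02 CPM in WT (SD, n = 2 each). Over WT, KO C22 stood at a log2 fold change of 4.57 (SE 0.63) and KO C28 at 4.39 (SE 0.63), or 23.7-fold and 20.9-fold, and 4.55 and 4.87 without Bru-seq KO C28 replicate 2.

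**Figure D2:**
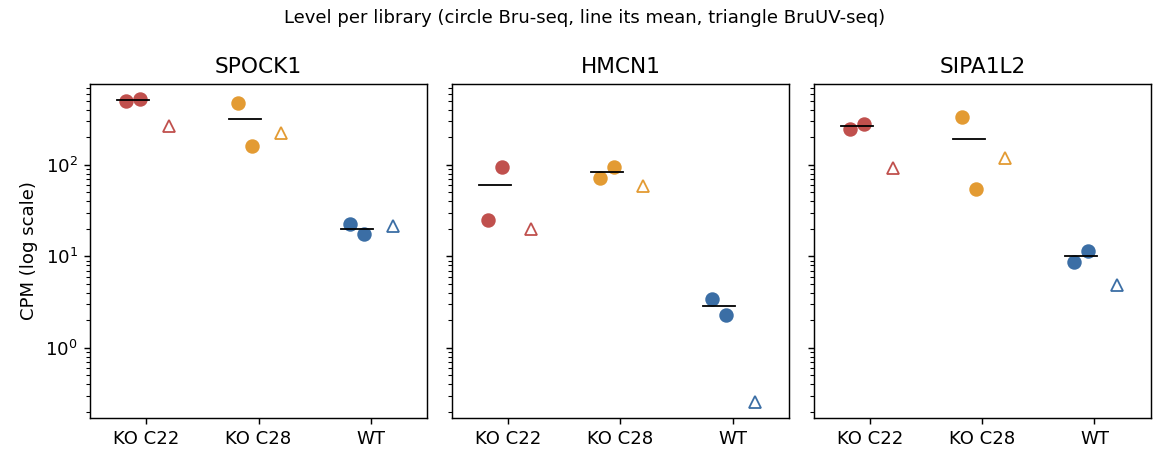
CPM (log scale) of SPOCK1, HMCN1 and SIPA1L2 in each library of KO C22, KO C28 and WT. Circles are Bru-seq libraries with their mean as a line, and triangles are the single BruUV-seq libraries. For each gene all 6 clone libraries lie above all 3 WT libraries.

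As the background of this choice, 37 of the 20819 genes tested (0.178%) passed an adjusted p of 0.05 in KO C22 over WT and 26 (0.125%) in KO C28 over WT. The 3 genes are among 6 (0.0288%) that were higher in both clones. All 6 clone libraries lay above all 3 WT libraries in 266 genes (1.28%). Since the clones were set against the same WT libraries, the values in KO C22 and KO C28 are not independent of each other. Across 17 other ways of processing or leaving out libraries, the fold change of each gene in each clone stayed positive, 102 values between 3.16 and 6.77 on the log2 scale. These settings reuse the libraries that chose the genes, so the sign was largely fixed by the choice and lends it no support. The number of the 3 genes that pass in both clones moved more: it was 0 with the Bru-seq libraries alone, 1 (SIPA1L2) with an offset for gene length, and 0 when either WT Bru-seq library or any of the BruUV-seq libraries was left out.

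**Figure D3:**
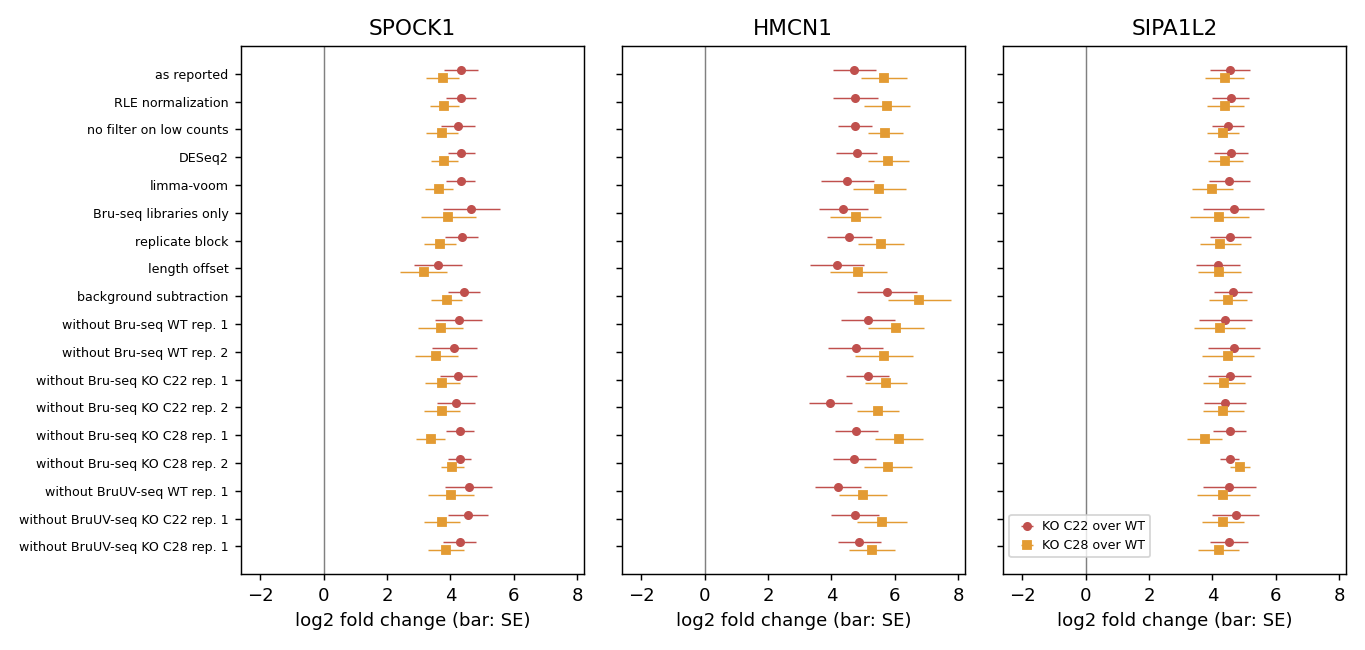
Log2 fold change (horizontal axis, bar SE) of SPOCK1, HMCN1 and SIPA1L2 in KO C22 and KO C28 over WT, as reported and under 17 other settings. Every value lies to the right of 0, between 3.16 and 6.77, and HMCN1 after background subtraction is the highest. The settings reuse the libraries that chose the genes, so the sign was largely fixed by the choice.

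Per length of gene, the 3 genes kept an order in the clones. In RPKM, SIPA1L2 gave 1.21 and 1.12 in Bru-seq of KO C22, SPOCK1 0.773 and 0.650, and HMCN1 0.0443 and 0.133, with no overlap between neighbours in that order. In KO C28 SIPA1L2 gave 1.73 and 0.257 RPKM, SPOCK1 0.770 and 0.234, and HMCN1 0.133 and 0.158. The ranges of SIPA1L2 and SPOCK1 overlapped there. In WT SIPA1L2 gave 0.0447 and 0.0576 RPKM, SPOCK1 0.0360 and 0.0274, and HMCN1 0.00624 and 0.00410. BruUV-seq of WT turned the order of the first pair, with 0.0276 RPKM for SIPA1L2 and 0.0384 for SPOCK1. Among the tested genes of a library, SIPA1L2 ranked at percentiles 72.5 and 74.7 of RPKM in Bru-seq of KO C22, against 23.7 and 20.5 in WT. It ranked at 77.65 and 50.3 in Bru-seq of KO C28. In BruUV-seq it ranked at 47.4 in KO C22 and 50.5 in KO C28, against 16.9 in WT. HMCN1 ranked at percentiles 21.2 and 32.4 in Bru-seq of KO C22 and 31.4 and 41.0 in KO C28, against 8.14 and 8.13 in WT, below the middle of the tested genes in every one of these libraries.

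The clones were compared with each other directly, a contrast that did not choose the genes. None of the 3 differed by the edgeR quasi-likelihood test: the log2 fold change of KO C28 over KO C22 was -0.56 for SPOCK1 (SE 0.47, 95% interval -1.59 to 0.46, adjusted p = 0.837), 0.93 for HMCN1 (SE 0.59, -0.38 to 2.23, adjusted p = 0.837) and -0.18 for SIPA1L2 (SE 0.55, -1.38 to 1.02, adjusted p = 0.942). These intervals leave room for differences of several fold, so the test does not show that the clones are alike. In this contrast 0 of 20819 genes (0%) passed by edgeR, 1189 had an unadjusted p under 0.05, and DESeq2 called 226 (1.28% of those it gave an adjusted p) and limma-voom 0. Without Bru-seq KO C28 replicate 2 the SIPA1L2 value was 0.32 and turned its sign.

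BruUV-seq gave lower levels than Bru-seq for HMCN1 and SIPA1L2 in the fit, though neither passed. The log2 fold change of BruUV-seq over Bru-seq was -0.43 for SPOCK1 (SE 0.42, edgeR adjusted p = 0.531), -1.54 for HMCN1 (SE 0.57, adjusted p = 0.144) and -1.08 for SIPA1L2 (SE 0.50, adjusted p = 0.205), while 93 of 20819 genes (0.447%) passed. The unadjusted p of HMCN1 was 0.0197. HMCN1 passed by DESeq2 (-1.69, adjusted p = 0.0229), which called 18.9% of the genes with an adjusted p. It also passed in edgeR with no filter on low counts (-1.65, adjusted p = 0.00756), where 5.74% of genes did. SIPA1L2 passed in edgeR without Bru-seq KO C28 replicate 2 (-1.35, adjusted p = 0.0132), where 15% of genes did. The 2124 tested genes of 150 to 600 kb, the length class of all 3, had a median of -1.05 with quartiles of -2.56 and -0.49. HMCN1 and SIPA1L2 lay between these quartiles and SPOCK1 just above the upper. The SIPA1L2 counts lack the 68.9 kb that RefSeq adds upstream, so signal near that start is not in its values. With an offset for gene length HMCN1 stood at -0.15 (SE 0.69, edgeR adjusted p = 0.928) and SIPA1L2 at -0.35 (SE 0.53, adjusted p = 0.757), so most of their difference was gone. The SPOCK1 value turned its sign to 0.87 (SE 0.58) and did not pass (adjusted p = 0.440).

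Within each line the BruUV-seq level was set beside the Bru-seq mean. SPOCK1 kept 0.513 of its Bru-seq level in KO C22, 0.709 in KO C28 and 1.08 in WT. HMCN1 kept 0.334 in KO C22, 0.711 in KO C28 and 0.0890 in WT, the last from 6 reads. SIPA1L2 kept 0.351 in KO C22, 0.614 in KO C28 and 0.479 in WT, without any signal near the RefSeq start, which lies outside its counts. The clone over WT ratio in BruUV-seq was thus smaller than in Bru-seq for SPOCK1 and larger for HMCN1.

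For SPOCK1 the BruUV-seq ratio was 12.2 in KO C22 (95% counting interval 11.1 to 13.4) and 10.4 in KO C28 (9.48 to 11.4), where the ratios of the Bru-seq means were 25.7 and 15.8. For HMCN1 it was 78.6 (35.6 to 216) in KO C22 and 233 (106 to 635) in KO C28, where the Bru-seq ratios were 21.0 and 29.1. For SIPA1L2 it was 19.1 (15.8 to 23.3) in KO C22 and 24.5 (20.3 to 29.8) in KO C28, where the Bru-seq ratios were 26.1 and 19.1. These intervals are exact binomial ones and cover counting error only, since each line has 1 BruUV-seq library. The line by assay interaction, tested across all genes in edgeR, did not pass for SPOCK1 (unadjusted p = 0.677), HMCN1 (unadjusted p = 0.106) or SIPA1L2 (unadjusted p = 0.828), and the adjusted p of each was 1. That fit leaves 3 residual degrees of freedom. It called 0 of 20819 genes (0%), with 49 at an unadjusted p under 0.05, and DESeq2 and limma-voom called 0 too.

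The fold change between lines varied with gene length across all genes. The median log2 fold change of genes under 10 kb was -0.14 in KO C22 and -0.02 in KO C28, and that of the 150 to 600 kb class was 0.55 in KO C22 and 0.46 in KO C28. In the 208 genes of 600 kb or more it was 1.26 in KO C22 and 2.24 in KO C28. With the length offset, SPOCK1 stood at 3.62 (SE 0.76) in KO C22 and 3.16 in KO C28, lower than without it. The part of gene length and of background in the members' fold changes was not tested beyond these values.

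**Figure D4:**
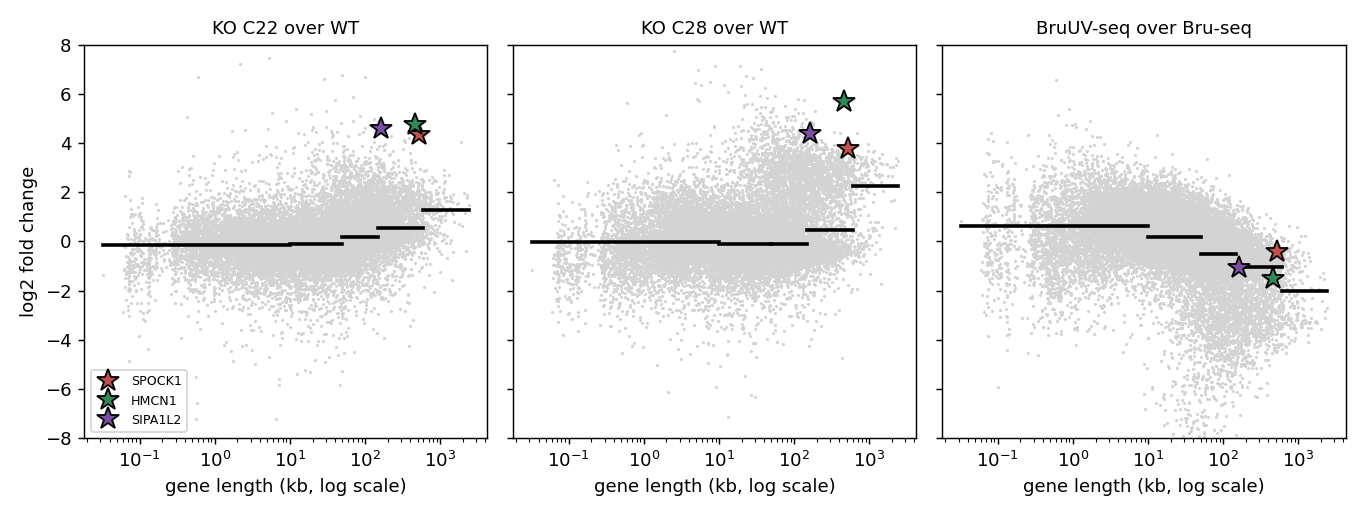
Log2 fold change against gene length (kb, log scale) for KO C22 over WT, KO C28 over WT and BruUV-seq over Bru-seq. Grey points are the 20819 tested genes within the plotted range, black lines the medians of 5 length classes, and stars SPOCK1, HMCN1 and SIPA1L2. The stars lie far above the 150 to 600 kb medians of 0.55 for KO C22 and 0.46 for KO C28. In the assay comparison they lie around the median of -1.05.

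Within 1 Mb of SPOCK1 the tables list 48 other genes, of which 24 could be tested, and 0 passed in either clone. Over all tested genes 0.178% passed in KO C22 and 0.125% in KO C28. At such shares 0 calls do not set the neighbours apart from other genes, here or around HMCN1 and SIPA1L2. Of the 24 tested, 11 lay above WT in each clone. Their median log2 fold change was -0.01 in KO C22 and -0.03 in KO C28. The median over all genes was 0.02 in KO C22 and -0.06 in KO C28. The nearest tested gene on the lower-coordinate side, the noncoding AC109439.2 at 221 kb, stood at 2.81 (SE 2.09) for KO C22 and 4.21 (SE 2.04) for KO C28 but averaged 11 reads, 44 of them in Bru-seq KO C22 replicate 1 and 33 in Bru-seq KO C28 replicate 2, the libraries of highest background. Without Bru-seq KO C28 replicate 2 its KO C28 value was 2.88. On the other side KLHL3, which encodes an adaptor of a ubiquitin ligase, lay 118 kb away at 0.29 (SE 0.46) for KO C22 and -0.08 (SE 0.47) for KO C28.

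EGR1, an immediate early transcription factor 966 kb from SPOCK1, had the largest mean RPKM of that window. It stood at 3.95, 26.9 and 44.9 CPM in Bru-seq replicates 1 and 2 and BruUV-seq of KO C22, and at 21.9, 27.4 and 114 CPM in KO C28, against 94.7, 340 and 275 CPM in WT. Only BruUV-seq of KO C28 reached the range of WT. Its log2 fold change of -3.50 in KO C22 (edgeR adjusted p = 0.123) and -2.55 in KO C28 (adjusted p = 0.353) did not pass, and DESeq2, which called 1.98% of the genes it gave an adjusted p in KO C22 and 3.86% in KO C28, called it in both. SMAD5-AS1_3, the next by RPKM, stood at -1.04 (SE 1.20) for KO C22 and -1.75 (SE 1.20) for KO C28.

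Around HMCN1, 15 of 41 neighbours could be tested and 0 passed in either clone. Above WT lay 13 in KO C22 and 11 in KO C28, with medians of 0.30 for KO C22 and 0.29 for KO C28. LINC01350, a noncoding RNA 106 kb away with a mean of 8.67 reads, stood at 0.76 (SE 1.49) for KO C22 and 2.86 (SE 1.52) for KO C28 (1.59 without Bru-seq KO C28 replicate 2). TPR, a nuclear pore component 121 kb to the other side, stood at 0.74 (SE 0.45) for KO C22 and 0.07 (SE 0.43) for KO C28, and IVNS1ABP, at 417 kb, at 0.76 (SE 0.40) for KO C22 and 0.29 (SE 0.40) for KO C28. The only gene whose body overlaps HMCN1, AL133553.1, had 0 reads in every library.

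Around SIPA1L2, 10 of 26 neighbours could be tested and 0 passed in either clone. Above WT lay 2 in KO C22 and 6 in KO C28, with medians of -0.11 for KO C22 and 0.11 for KO C28. The nearest on one side was DISC1, which encodes a scaffold protein first known from a psychiatric disorder. It stood at 25.8, 49.0 and 26.0 CPM in Bru-seq replicates 1 and 2 and BruUV-seq of KO C22, and at 39.4, 44.0 and 39.7 CPM in KO C28, against 12.2, 14.7 and 6.28 CPM in WT. All 6 clone libraries lay above the 3 of WT. KO C22 stood at 1.64 (SE 0.41) and KO C28 at 1.97 (SE 0.41) over WT on the log2 scale, which did not pass in edgeR (adjusted p = 0.217 and 0.126) and was called by DESeq2 in both clones. MAP10, at 243 kb on the other side, stood at -0.37 (SE 0.73) for KO C22 and 0.49 (SE 0.73) for KO C28. TSNAX stood at -0.15 (SE 0.59) for KO C22 and 0.70 (SE 0.59) for KO C28 (-0.18 without Bru-seq KO C28 replicate 2), and EGLN1, an oxygen-sensing hydroxylase gene, at -0.03 (SE 0.40) for KO C22 and -0.56 (SE 0.40) for KO C28.

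**Figure D5:**
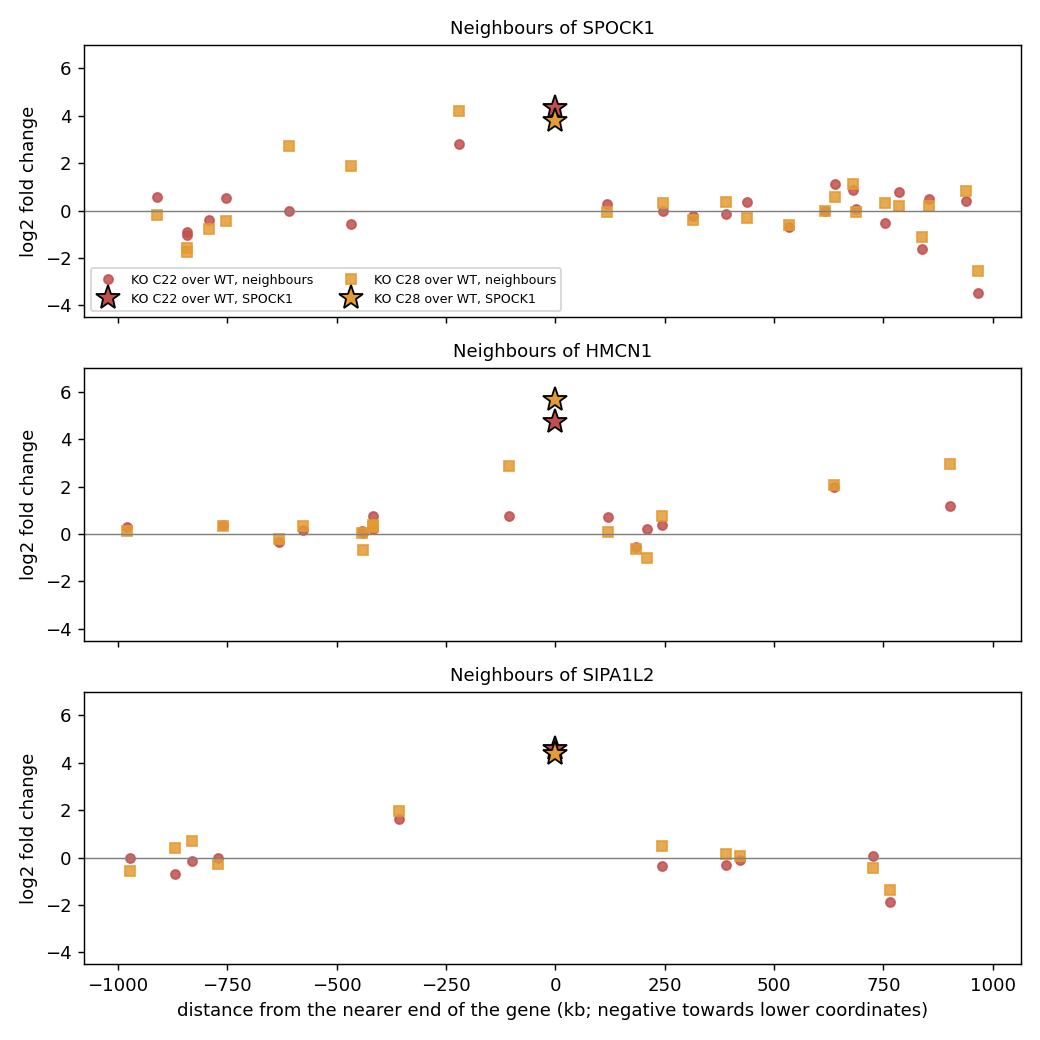
Log2 fold change in KO C22 and KO C28 over WT of the tested genes within 1 Mb of SPOCK1 (24 genes), HMCN1 (15) and SIPA1L2 (10), by distance in kb from the nearer end of the member, which is drawn as a star at 0. No neighbour passed the edgeR test, where 0.178% of all tested genes passed in KO C22 and 0.125% in KO C28. Apart from AC109439.2 in KO C28 none reached the members' fold changes.

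The relatives of the 3 genes were compared with them. For these and the lists that follow, 0.178% of all tested genes passed in KO C22 and 0.125% in KO C28. At such shares 0 passing says little about a short list. The median log2 fold change over all tested genes was 0.02 in KO C22 and -0.06 in KO C28. SPOCK2, which encodes testican-2, stood at 8.59, 12.0 and 14.6 CPM in Bru-seq replicates 1 and 2 and BruUV-seq of KO C22 and at 11.7, 9.91 and 21.0 CPM in KO C28, against 4.21, 8.11 and 6.91 CPM in WT. Its clone libraries lay above those of WT, and the log2 fold change, 0.84 (SE 0.48) for KO C22 and 1.08 (SE 0.49) for KO C28, did not pass (edgeR adjusted p = 0.972 and 0.478). SPOCK3 stood at 1.04 (SE 0.91) for KO C22 and 1.45 (SE 0.97) for KO C28, and HMCN2 at 1.33 (SE 1.26) for KO C22 and 2.87 (SE 1.33) for KO C28. SPOCK3 had 25.4 CPM in Bru-seq KO C28 replicate 2 against 4.59 and 0.787 CPM in the other KO C28 libraries, and its KO C28 value was 0.018 without that library. HMCN2 had 20.9 CPM in Bru-seq KO C28 replicate 2 and at most 3.39 CPM in any other library, and its KO C28 value was -0.71 without that library. Of the SIPA1 genes, SIPA1 stood at -0.30 (SE 0.53) for KO C22 and 0.57 (SE 0.52) for KO C28, SIPA1L1 at 0.82 (SE 0.41) for KO C22 and -0.20 (SE 0.40) for KO C28, and SIPA1L3 at 0.28 (SE 0.46) for KO C22 and -0.34 (SE 0.46) for KO C28. Over the 6 paralogues 0 passed in either clone, 5 lay above WT in KO C22 and 4 in KO C28, and the medians were 0.83 for KO C22 and 0.82 for KO C28. Without Bru-seq KO C28 replicate 2 the median for KO C28 was 0.05.

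The other genes of the SPARC family, which share the calcium-binding domain of testican-1, were 5 in number, and 0 passed in either clone. Above WT lay 4 in KO C22 and 5 in KO C28, with medians of 2.13 for KO C22 and 3.24 for KO C28. FSTL1, a secreted glycoprotein, stood at 58.6, 74.9 and 27.9 CPM in Bru-seq replicates 1 and 2 and BruUV-seq of KO C22 and at 30.7, 28.4 and 32.2 CPM in KO C28, against 10.1, 16.8 and 8.85 CPM in WT, with no overlap. KO C22 stood at 2.13 (SE 0.42) and KO C28 at 1.41 (SE 0.41) over WT (edgeR adjusted p = 0.0779 and 0.364). SPARC itself, a matrix glycoprotein, differed in sign between the clones, at -3.44 (SE 0.76) for KO C22 and 1.85 (SE 0.69) for KO C28 (adjusted p = 0.149 and 0.461). DESeq2 called 3 of the 5 in each clone, where it called 348 of 17590 genes with an adjusted p (1.98%) in KO C22 and 711 of 18397 (3.86%) in KO C28. Much of the KO C28 median rested on Bru-seq KO C28 replicate 2, the library of highest background: without it the median was 1.82, with 5 above WT. Of the members with few reads, named after their values were seen, SMOC2 had 42.7 CPM in that library against 0.701 and 1.41 CPM in the other KO C28 libraries, and SPARCL1 had 6.07 against 1.02 and 0.337 CPM. In KO C22 both were highest in Bru-seq replicate 1, the library of next highest background. There SMOC2 had 6.49 CPM against 0.577 and 0.848 in the other KO C22 libraries, and SPARCL1 1.57 against 0.177 and 0.231. SMOC1 was not highest there, at 4.54 CPM against 22.1 and 9.71.

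Of the fibulins, the family in which HMCN1 is counted, 5 of 6 could be tested and 0 passed. EFEMP1, or fibulin-3, stood at 38.8, 59.2 and 18.6 CPM in the KO C22 libraries and at 0.51, 1.73 and 1.07 CPM in those of KO C28, against 3.80, 5.57 and 4.13 CPM in WT. The log2 fold changes of 3.03 in KO C22 (SE 0.57, edgeR adjusted p = 0.0673) and -2.04 in KO C28 (SE 0.57, adjusted p = 0.343) thus had opposite signs, with every KO C22 library above and every KO C28 library below WT. FBLN1 stood at 0.30 (SE 0.44) for KO C22 and -0.06 (SE 0.44) for KO C28. The family medians were 0.30 for KO C22 and -0.06 for KO C28.

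Of the proteases tied to testicans, 5 were tested and 0 passed, with medians of 0.54 in KO C22 and 1.33 in KO C28. MMP16, a membrane-bound metalloproteinase, stood at 0.17 (SE 0.46) for KO C22 and -0.07 (SE 0.46) for KO C28. MMP2, a secreted gelatinase, stood at 0.54 (SE 0.56) for KO C22 and 2.10 (SE 0.58, edgeR adjusted p = 0.336) for KO C28.

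The list of enzymes that build heparan and chondroitin sulfate chains holds 32 genes. Of these 31 were tested and 0 passed, 22 lay above WT in KO C22 and 21 in KO C28, and the medians were 0.21 for KO C22 and 0.34 for KO C28. EXT1, a polymerase of heparan sulfate, stood at 1.14 (SE 0.64) for KO C22 and -0.20 (SE 0.65) for KO C28, and NDST1, which modifies the chain, at 1.47 (SE 0.50) for KO C22 and 0.48 (SE 0.49) for KO C28. Other proteoglycan core proteins numbered 19 tested of 23, with 0 passing. Above WT lay 15 in KO C22 and 16 in KO C28, with medians of 1.00 for KO C22 and 0.82 for KO C28. Under other settings up to 3 core protein genes were called in KO C22 and up to 1 in KO C28. Those settings called up to 348 genes in all in KO C22 and up to 1100 in KO C28. Of the core protein genes, HSPG2, the perlecan gene, stood at 1.00 (SE 0.40) for KO C22 and 0.34 (SE 0.40) for KO C28. COL18A1 stood at 0.68 (SE 0.60) for KO C22 and 0.73 (SE 0.60) for KO C28.

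Basement membrane genes, the setting in which hemicentins act, were 19 in number with 0 passing, 11 above WT in KO C22 and 10 in KO C28, and medians of 0.22 for KO C22 and 0.68 for KO C28. The laminin subunit LAMB1 stood at 0.55 (SE 0.41) for KO C22 and -0.30 (SE 0.41) for KO C28, and LAMC1 at 0.22 (SE 0.36) for KO C22 and -0.21 (SE 0.35) for KO C28. Of the RAP GTPases and their partners, the system on which SIPA1L2 acts, 22 of 24 were tested and 0 passed. Above WT lay 13 in KO C22 and 6 in KO C28, with medians of 0.07 for KO C22 and -0.41 for KO C28. RAP1B stood at -1.11 (SE 0.60) for KO C22 and -0.96 (SE 0.60) for KO C28, and the RAP effector AFDN at 0.38 (SE 0.46) for KO C22 and -0.93 (SE 0.46) for KO C28. Of all these lists, leaving out Bru-seq KO C28 replicate 2 brought the KO C28 median to -0.16 for the fibulins (0 of 5 above WT), 0.68 for the proteases, 0.26 for chain synthesis, 0.45 for the core proteins, 0.17 for the basement membrane genes and -0.20 for the RAP genes. No such KO C22 medians are given without Bru-seq KO C22 replicate 1, the library of next highest background.

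Markers of other cell types were looked at beside these matrix genes. The 9 fibroblast and stellate cell markers summed to 7.32 to 39.9 CPM in KO C22, 5.29 to 26.1 CPM in KO C28 and 3.94 to 7.83 CPM in WT, and 1 of 9 had at least 10 reads in every library. The 39.9 CPM of KO C22 came from BruUV-seq, with 38.0 CPM of it from COL1A1. The 4 endothelial markers summed to 1.70 to 4.97 CPM in KO C22, 2.68 to 22.6 CPM in KO C28 and 1.81 to 2.75 CPM in WT. The 5 leukocyte markers reached at most 6.20 CPM in any library and the 5 acinar and islet markers at most 2.23. INS, the insulin gene, had 0 reads in all. In each of these sets the highest KO C28 value came from Bru-seq KO C28 replicate 2, the library of highest background. The part of these markers in the members' levels was not tested.

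Across the 9 libraries, SPOCK1 and SIPA1L2 varied most alike of the 3 (Pearson r of log2 CPM 0.978), and HMCN1 correlated with SIPA1L2 at 0.885 and with SPOCK1 at 0.864. Ranked among 11811 genes with a mean of at least 100 reads, the nearest to SPOCK1 were HHIP (0.979), which binds hedgehog ligands, SIPA1L2, MAMLD1 (0.961), the talin gene TLN2 (0.949) and L3MBTL4 (0.947). The nearest to SIPA1L2 were SPOCK1, the transcription factor TCF4 (0.972), TLN2 (0.971), L3MBTL4 (0.967) and HHIP (0.961). The nearest to HMCN1 were LIX1-AS1 (0.993), DISC1 (0.991), PDE7B (0.958), LINC01340 (0.948) and L3MBTL4 (0.948), while SIPA1L2 ranked 23 and SPOCK1 ranked 33. For each of these genes all 6 clone libraries lay above all 3 of WT, where 266 of 20819 tested genes (1.28%) did so. Because they were picked for likeness to members with that same pattern, this follows largely from the pick. These correlations describe 9 libraries that share lines, assay and depth, and carry no p. HMCN1 stood at a log2 CPM of -1.47 in BruUV-seq of WT, from 6 reads, and at 1.27 or more in every other library. The weight of that library in the HMCN1 correlations and ranks was not tested.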

How the data were processed

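Nascent RNA of PANC-1 was sequenced in 9 libraries, and groups follow the labels. Per the labels' protocols, bromouridine RNA was captured with an antibody and its strand was kept in the libraries. CASAVA 1.8.2, Bowtie2 2.3.3, STAR 2.5.3a and bedtools 2.16.2 were used per the submitters' processing notes, which give no roles. The annotation release and the use of strand in counting are not given in the sources used here, so antisense symbols are uncertain. The deposited tables hold, for 57733 genes, expected counts (estimated reads over the gene body) and RPKM made by the authors; the units of both were judged from the values.

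Counts were rounded and fitted in edgeR 4.0.16 (R 4.3.3) with filterByExpr, TMM, line and assay as terms, quasi-likelihood tests and Benjamini-Hochberg adjustment at 0.05 over 20819 genes. RPKM served for levels between genes, with no test. SE is the fold change over the root of the F statistic. Log2 CPM used a prior count of 2. DESeq2 1.42.0 and limma 3.58.1 (voom) were alternatives, beside RLE factors, no filter, Bru-seq alone, a replicate block, a length offset, background subtraction and leaving out each library. The tests were also run on simulated counts, but the outcome is not given and nothing here rests on it.

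The members, gene lists, markers and tests were chosen with earlier results of these data known. Named are the members, KDM6A, the nearest tested neighbour on each side and the 2 of largest mean RPKM, the 6 paralogues, the 2 list members of largest mean count, and the 5 genes of highest correlation per member. Replicate numbers were not used as pairs: deviations of same-numbered Bru-seq libraries correlated at 0.459 (KO C22 and WT), 0.0369 (KO C28 and WT) and -0.382 (KO C28 and KO C22).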

Additional observations from a re-analysis of the deposited data

Results flagged for a closer look

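SPARC and EFEMP1, relatives of SPOCK1 and HMCN1, went opposite ways in the clones. Every library of 1 clone lay above all WT libraries and every library of the other below them. They were found by searching the named genes for this pattern, and its share over all tested genes was not counted. SPARC stood at 26.3, 35.7 and 22.2 CPM in KO C28 (Bru-seq replicates 1 and 2, then BruUV-seq) and at 1.84, 0.399 and 0.154 CPM in KO C22, against 4.26, 13.1 and 6.03 CPM in WT. KO C28 over KO C22 was 5.29 on the log2 scale (SE 0.82), which did not pass in edgeR (adjusted p = 0.131) and passed in DESeq2 (adjusted p = 3.40e-10). EFEMP1 had a KO C28 over KO C22 value of -5.07 (SE 0.64), with an adjusted p of 0.0596 in edgeR and 6.57e-13 in DESeq2. In this comparison DESeq2 called 226 of 17590 genes with an adjusted p (1.28%), and edgeR called 0.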

How the results depend on the processing

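Low WT counts limit HMCN1 most, since 6 reads in BruUV-seq of WT and 56 and 74 in Bru-seq set its fold change. The WT libraries were not shallow, at 22.2 to 25.7 M reads in genes. The HMCN1 density in them was 0.846 to 2.62 times the background. Genes past the threshold in KO C22 over WT numbered 37; with no filter on low counts 272, by DESeq2 348, with Bru-seq libraries alone 1, and 3 to 142 when 1 library was left out. In KO C28 over WT they numbered 26; with no filter 1100, by DESeq2 711, with Bru-seq alone 1, and 1 to 67 when 1 library was left out. The highest counts in both came without Bru-seq KO C28 replicate 2. In KO C28 over KO C22 the count of 0 became 230 with no filter, 226 by DESeq2, 2 with the length offset and up to 18 without 1 library (0 to 18). In BruUV-seq over Bru-seq the count of 93 became 1 with RLE factors, 2326 with no filter, 3866 by DESeq2, 640 by limma-voom, 0 with the length offset, 0 with background subtraction and 0 to 3305 without 1 library. The low end was reached without Bru-seq WT replicate 1 or any BruUV-seq library, and the high end without Bru-seq KO C28 replicate 2. With the replicate number as a block, a further term in the fit, the counts were 46 in KO C22, 49 in KO C28 and 903 in BruUV-seq over Bru-seq, and 2 of the 3 members passed in both clones. The members passing in both clones were 0 with Bru-seq alone, 1 with the length offset, 2 with background subtraction and 2 by limma-voom, and 0 to 3 without 1 library. Fold changes of members over WT that moved by more than the spread between replicates were 3.62 for SPOCK1 in KO C22 with the length offset, 5.75 and 6.77 for HMCN1 in KO C22 and KO C28 with background subtraction, and 4.76 for HMCN1 in KO C28 with Bru-seq alone. In BruUV-seq over Bru-seq, HMCN1 stood at -0.15 with the length offset, against -1.54 without it. Signs turned for SPOCK1 in BruUV-seq over Bru-seq with the length offset (0.87), and for SIPA1L2 in KO C28 over KO C22 with the length offset (0.036) and without Bru-seq KO C28 replicate 2 (0.32, the range without 1 library being -0.79 to 0.32). The cause of these changes was not tested. The interaction could not be fitted without a BruUV-seq library. The median over all genes moved by more than 0.1 with no filter for BruUV-seq over Bru-seq (to -0.45), KO C28 over KO C22 (to 0.16) and KO C28 over WT (to 0.06). Among left-out libraries it did so without BruUV-seq KO C28 (to -0.21, 0.21 and 0.11 in the same comparisons), without Bru-seq KO C28 replicate 1 (to 0.18 in KO C28 over KO C22 and 0.08 in KO C28 over WT) and without Bru-seq WT replicate 2 (to 0.06 in KO C28 over WT).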
